A study of Mus musculus with 4 samples.

Results

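The genes described here are 29 genes of cholesterol synthesis, uptake and trafficking, taken by gene symbol from a list that covers the mevalonate and sterol pathway, its control by SREBP2, and the handling of cholesterol that enters the cell. All 29 were found, once each, in both deposited tables, which list 25522 and 26085 genes and share 24182. Of the 29 genes, 8 belong to the mevalonate arm, 12 to the squalene and sterol arm, 4 to control of the pathway, and 5 to uptake, trafficking and esterification. The rule itself uses gene symbols and no measured value.

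Cells build cholesterol from acetyl-CoA. The mevalonate arm makes isoprenoid units, and the squalene and sterol arm joins them into squalene, closes the rings and trims the sterol. SREBP2 is a membrane-bound transcription factor that the escort protein SCAP carries to the Golgi when membrane sterol is low, while the INSIG proteins hold the pair back in the endoplasmic reticulum when sterol is plentiful. The small intestine both makes cholesterol and absorbs it from the lumen through NPC1L1 at the brush border of enterocytes.

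The study asked how depletion of what its text abbreviates as AKK by tetracycline, an antibiotic, bears on the response to food. The RNA came from small-intestinal crypts, labelled as epithelial cells, and all mice were male C57BL/6J aged 9 weeks. The 4 groups were fed mice and mice fasted for 24 hours, each without tetracycline or after 21 days of it. The labels list 1 sample in each group, but the whole counts behind the authors' deposited means show 2 libraries on each side of each comparison, so each table rests on 4 libraries.

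Whether the 2 libraries of a side came from separate mice is not given in the sources used here, and the p-values measure only the spread between these libraries, which may be technical. Size factors, which scale libraries for depth, spanned 1.17-fold in the table without tetracycline and 1.75-fold in the other. The 6 epithelial markers had means of 17206 to 184435 normalized counts without tetracycline, and the 6 stem cell markers of 647 to 63881. The 9 enterocyte markers reached 64677 to 390480, so the libraries labelled crypt also held abundant enterocyte RNA. Markers of lymphocytes (236 to 3581) and stroma (16.2 to 1053) were present at lower means, and the 3 erythrocyte markers at 2163 to 54894. In RNA from bulk tissue, fewer cells of a type and less RNA per cell cannot be told apart.

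RefSeq promoter windows of GRCm38.p6 around transcription starts were found for 23 of the 29 genes and numbered 29. No window was matched for Sqle, Fdft1, Fdps, Stard4, Npc1 and Soat2. The windows were searched on both strands for the sterol regulatory element TCACNCCA, to which SREBP proteins bind, and for CCAAT, the box of NF-Y, a factor known to act beside them. TCACNCCA was present in 3 of 23 genes (13.0%) against 4.97% of 27025 genes with a window. CCAAT was present in 21 of 23 (91.3%) against 41.1%. The Sp1 box GGGCGG was present in 20 (87.0% against 38.2%), and the E-box CACGTG in 5 (21.7% against 8.09%).

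The 3 windows with TCACNCCA are printed because they hold the sterol element, and those of Mvk and Idi1 because these genes were lower in both fasted libraries without tetracycline and hold only CCAAT of these 2 motifs. Each runs 5′ to 3′ on the gene's own strand. Capitals mark TCACNCCA and CCAAT, the latter read as ATTGG where it lies on the other strand. Hmgcs1 lies at chr13:119690101-119690400 (plus strand), Msmo1 at chr8:64733529-64733828 (minus), Srebf2 at chr15:82147019-82147318 (plus), Mvk at chr5:114444019-114444318 (plus) and Idi1 at chr13:8885356-8885655 (plus).
Hmgcs1: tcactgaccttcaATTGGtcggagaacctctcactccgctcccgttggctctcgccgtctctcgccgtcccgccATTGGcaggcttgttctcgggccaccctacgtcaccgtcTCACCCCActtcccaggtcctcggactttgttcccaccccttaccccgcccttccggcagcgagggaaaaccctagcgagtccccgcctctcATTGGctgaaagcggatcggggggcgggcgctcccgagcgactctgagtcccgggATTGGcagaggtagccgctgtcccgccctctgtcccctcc
Msmo1: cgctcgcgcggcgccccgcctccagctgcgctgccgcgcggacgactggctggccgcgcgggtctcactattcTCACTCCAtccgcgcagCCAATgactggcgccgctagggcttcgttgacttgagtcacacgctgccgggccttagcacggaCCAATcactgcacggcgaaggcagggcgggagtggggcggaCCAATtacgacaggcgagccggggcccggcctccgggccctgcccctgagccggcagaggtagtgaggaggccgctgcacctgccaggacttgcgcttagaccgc
Srebf2: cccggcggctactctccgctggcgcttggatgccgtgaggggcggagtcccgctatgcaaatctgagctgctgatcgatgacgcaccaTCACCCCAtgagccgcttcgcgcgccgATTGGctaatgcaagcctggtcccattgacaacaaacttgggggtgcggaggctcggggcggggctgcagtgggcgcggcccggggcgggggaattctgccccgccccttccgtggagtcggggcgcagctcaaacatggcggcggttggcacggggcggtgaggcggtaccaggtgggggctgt
Mvk: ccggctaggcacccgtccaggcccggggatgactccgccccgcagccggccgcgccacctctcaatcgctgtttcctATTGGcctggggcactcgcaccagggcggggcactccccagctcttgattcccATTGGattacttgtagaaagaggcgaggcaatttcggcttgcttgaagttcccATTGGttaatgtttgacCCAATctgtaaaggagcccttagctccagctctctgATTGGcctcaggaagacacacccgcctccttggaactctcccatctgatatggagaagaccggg
Idi1: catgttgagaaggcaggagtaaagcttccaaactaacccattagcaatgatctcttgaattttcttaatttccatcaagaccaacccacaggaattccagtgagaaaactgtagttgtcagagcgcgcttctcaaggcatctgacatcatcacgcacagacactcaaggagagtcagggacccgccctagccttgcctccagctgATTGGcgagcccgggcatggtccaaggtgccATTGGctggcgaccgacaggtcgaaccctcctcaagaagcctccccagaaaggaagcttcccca

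The element read TCACCCCA in Hmgcs1, beginning at position -137 from the start, and TCACCCCA in Srebf2, at -162. In Msmo1 it read TCACTCCA and began at -177. The Mvk window held CCAAT 5 times, that of Hmgcs1 4 times and that of Msmo1 3 times. Acat2, also lower in both fasted libraries without tetracycline, held neither motif, while Ggps1, whose groups overlapped there, held CCAAT 3 times. These are matches of letters, with no measurement of binding.

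The first comparison asked what 24 hours of fasting did to these genes without tetracycline. Most stood lower in the fasted mice, and the mevalonate arm stood lowest, but no gene passed the test. The authors' deposited table, which gives DESeq2's Wald test, called none (0 of 29) at an adjusted p under 0.05, where 2.27% of 18100 tested genes were called and 1.22% called lower. Unadjusted p-values under 0.05 were held by 7 genes, all lower, against 10.8% of all genes in either direction and 6.21% lower. The log2 difference, fasted over fed, was below 0 for 24 genes and above 0 for 5, with a median of -0.28. Over all genes tested the median was 0.01 and 49.5% were lower. Within the level range of these genes (a mean of 500 or more) the median was -0.03 and 53.9% were lower.

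Both fasted libraries lay below both fed libraries in 16 of 29 genes, where 23% of all genes and 25% of those with means from 500 up did so. In 0 of 29 did both lie above, where 21.7% and 17.6% did. The median difference was -0.44 without fasted library 1 and -0.18 without fed library 1, and between 21 and 26 genes were lower when any 1 library was left out.

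**Figure D1:**
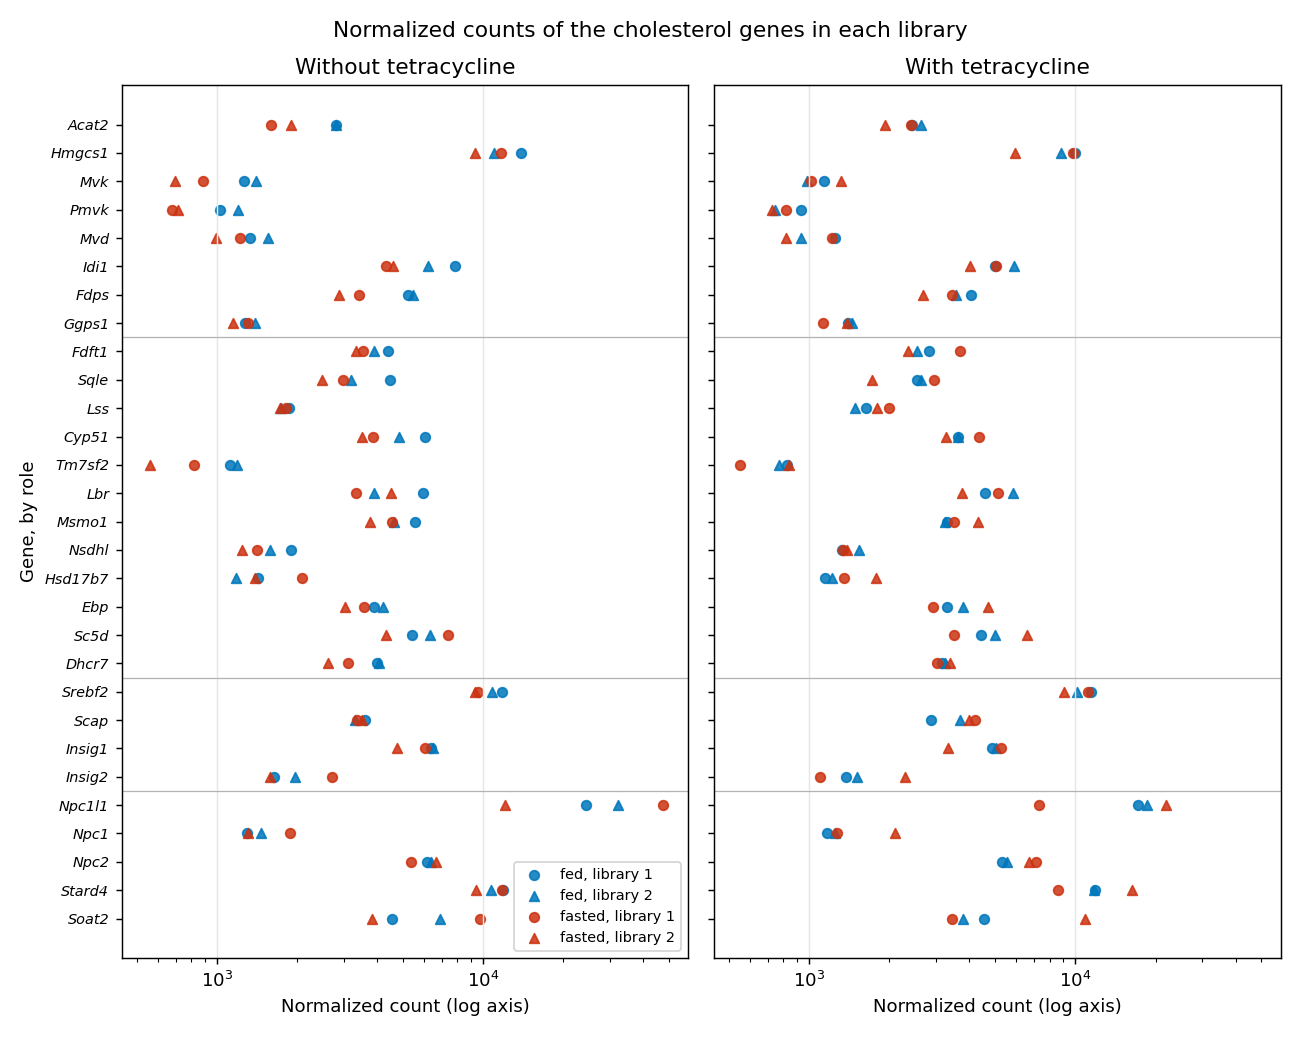
Normalized counts (log axis) of the 29 genes in each library, for mice without (left) and with tetracycline (right). Blue marks are fed and red marks fasted libraries, circles are library 1 and triangles library 2, and grey lines part the 4 roles. Without tetracycline the red marks lie left of the blue ones in 16 genes, whereas with tetracycline this holds for 3.

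The mevalonate arm was lower in all 8 genes, with a median difference of -0.67, and both fasted libraries lay below both fed libraries in 6 of them. Fdps, farnesyl diphosphate synthase, at chr3:89093588-89101959 on the minus strand of GRCm38, had the lowest p-value of all 29 genes. Its normalized counts were 5216 and 5439 in the fed libraries and 3417 and 2869 in the fasted ones. The groups did not overlap. The difference was -0.76 (SE 0.26, 95% interval -1.26 to -0.26), and the authors' deposited table gives it p = 0.00285, or 0.0932 after DESeq2's adjustment. Genes given library by library here and below were chosen after their values were seen.

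Acat2, the cytosolic thiolase that makes the acetoacetyl-CoA for the first step, had 2804 and 2807 in the fed libraries and 1589 and 1904 in the fasted ones. Mvk, mevalonate kinase, had 1258 and 1395 fed and 885 and 697 fasted. Pmvk, the kinase that acts next, had 1022 and 1200 fed and 676 and 716 fasted. In each of the 3 genes the fasted libraries lay below the fed ones with no overlap. The log2 differences were -0.68 (SE 0.26), -0.75 (SE 0.28) and -0.67 (SE 0.27), and the adjusted p-values from DESeq2 were 0.184, 0.177 and 0.247.

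Idi1, the isomerase that interconverts the isoprenoid units, had 7834 and 6216 in the fed libraries and 4315 and 4593 in the fasted ones, a difference of -0.66 (SE 0.26). Mvd, which makes the first isoprenoid unit by decarboxylation, had 1330 and 1555 fed and 1216 and 990 fasted, a difference of -0.39 (SE 0.28). Hmgcs1 and Ggps1 differed less. Hmgcs1, the cytosolic HMG-CoA synthase that opens the committed pathway, had 13923 and 11005 fed and 11662 and 9344 fasted, so the groups overlapped (-0.25, 95% interval -0.78 to 0.29). Ggps1, which diverts isoprenoids to geranylgeranyl diphosphate rather than to sterol, overlapped too, at 1272 and 1384 fed and 1313 and 1149 fasted (-0.11, 95% interval -0.63 to 0.41).

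The squalene and sterol arm was lower in 11 of 12 genes, with a median of -0.31, and 8 had both fasted libraries below both fed ones. Tm7sf2, a sterol C14 reductase, had 1122 and 1192 in the fed libraries and 818 and 559 in the fasted ones, a difference of -0.75 (SE 0.30). Cyp51, the lanosterol demethylase, had 6018 and 4824 fed and 3865 and 3512 fasted, a difference of -0.56 (SE 0.26). Both had unadjusted p-values under 0.05 (0.0134 and 0.0342) and adjusted DESeq2 p-values of 0.242 and 0.389. Lbr, the lamin B receptor, which carries the same C14 reductase activity as Tm7sf2, had 5928 and 3904 fed and 3338 and 4514 fasted. Its groups overlapped, unlike those of Tm7sf2, at a difference of -0.32 (SE 0.31).

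Sqle, squalene epoxidase, had 4480 and 3190 in the fed libraries and 2976 and 2472 in the fasted ones (-0.49, SE 0.29). Dhcr7, which takes 7-dehydrocholesterol to cholesterol, had 3988 and 4074 fed and 3108 and 2614 fasted (-0.49, SE 0.26). Their fasted libraries stood below the fed ones by a larger log2 step than those of Fdft1, Msmo1, Nsdhl and Ebp, which were also apart but differed by -0.28 to -0.39. Lss, the cyclase that closes the sterol rings, was nearly level, at 1871 and 1742 fed and 1821 and 1727 fasted (-0.03, 95% interval -0.53 to 0.47). Sc5d, the sterol desaturase, spread widely in the fasted libraries, at 7381 and 4301 against 5404 and 6337 fed (-0.01). Hsd17b7, the sterol 3-ketoreductase, was the exception in sign, with 1427 and 1181 fed and 2086 and 1383 fasted (0.41, SE 0.31).

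Among the 4 control genes the differences lay between -0.25 and 0.25. Srebf2, the gene of SREBP2 itself, had 11738 and 10744 in the fed libraries and 9590 and 9329 in the fasted ones, which did not overlap (-0.25, 95% interval -0.73 to 0.23). Scap had 3603 and 3302 fed and 3345 and 3511 fasted (-0.01). Insig1 and Insig2, the pair of retention proteins, differed in sign. Insig1, itself a target of SREBP2, had 6349 and 6459 fed and 6058 and 4728 fasted (-0.25, SE 0.26). Insig2 had 1636 and 1967 fed and 2706 and 1579 fasted (0.25, SE 0.33), so its 2 fasted libraries lay on either side of both fed ones. Neither passed the test, with adjusted DESeq2 p-values of 0.854 and 0.899.

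The 5 genes of uptake, trafficking and esterification had a median of 0.07, and the groups overlapped in all 5. Npc1l1, the brush border transporter through which enterocytes take up sterol, had the highest mean of all 29 genes and the widest spread. It had 24323 and 31990 in the fed libraries but 47171 and 12062 in the fasted ones, a difference of 0.07 with a 95% interval of -1.71 to 1.86. Soat2, the acyltransferase that esterifies absorbed cholesterol in enterocytes, had 4534 and 6871 fed and 9720 and 3837 fasted (0.25, SE 0.41). For both genes fasted library 1 was the highest of the 4 and fasted library 2 the lowest. Npc1 and Npc2, which move cholesterol out of lysosomes, differed by 0.21 and -0.06, and Stard4, a soluble sterol carrier, by -0.09.

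**Figure D2:**
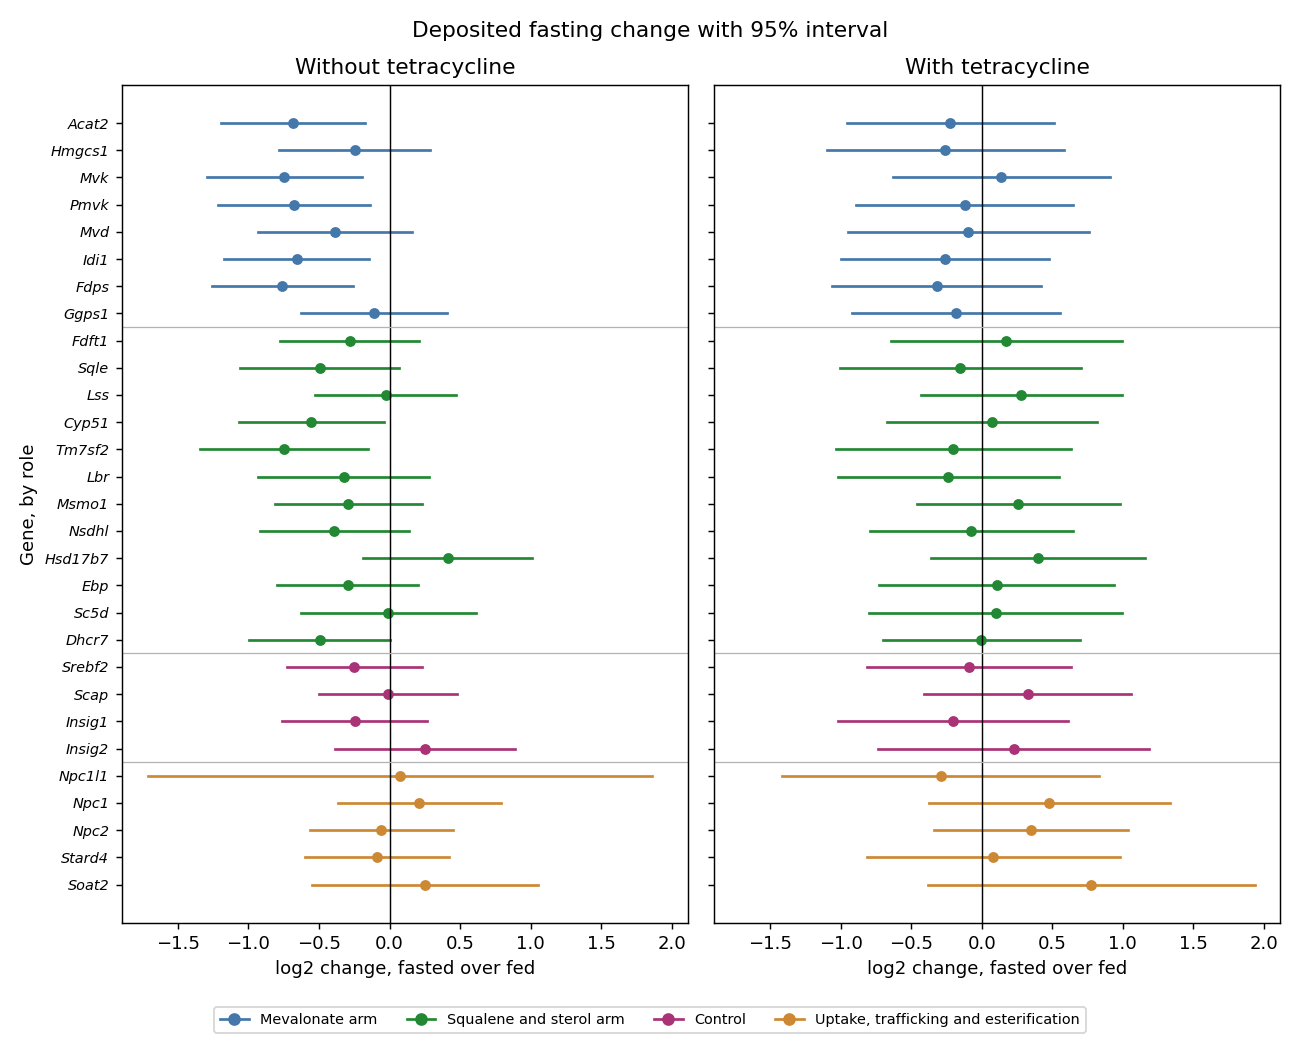
Log2 difference, fasted over fed, of each gene as deposited (points) with its 95% interval from the deposited standard error (lines), coloured by role, without (left) and with tetracycline (right). Without tetracycline the intervals of 7 genes lie below 0, 5 of them in the mevalonate arm, and with tetracycline every one of the 29 intervals spans 0.

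Expression per length placed these genes on 1 scale, as normalized counts per kilobase of the principal transcript, averaged over the fed libraries without tetracycline. Npc1l1 stood highest at 6303, followed by Fdps at 3855, Hmgcs1 at 3598, Soat2 at 2583 and Msmo1 at 2482. Npc1 at 263, Hsd17b7 at 283 and Ggps1 at 313 were the lowest. The genes with the largest fasting differences were thus spread over the scale, from Mvk at 799 and Tm7sf2 at 786 to Fdps.

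The second comparison put the same question to mice given tetracycline for 21 days. There the genes as a group stood neither lower nor higher. Of the 29, DESeq2 called 0 in the authors' deposited table at an adjusted p under 0.05, where 0.6% of 17993 genes were, and 0 had an unadjusted p under 0.05, where 5.34% did (3.06% lower). Log2 differences were below 0 in 15 genes and above 0 in 14, with a median of -0.0016 (all genes -0.02). Both fasted libraries lay below both fed ones in 3 genes and above in 6, where 15.5% and 15.8% of all genes did. In the other 20 genes the groups overlapped. The median ran from -0.03 to 0.07 when any 1 library was left out. Standard errors were larger than without tetracycline, 0.39 at the median of the 29 genes against 0.27, and 16 of 29 intervals lay within 1 log2 unit of 0 against 18.

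The mevalonate arm was again lower in most genes, 7 of 8, but with a median of -0.20. The 3 genes whose fasted libraries both lay below the fed ones were all in this arm. Fdps had 4064 and 3572 in the fed libraries and 3430 and 2687 in the fasted ones (-0.32, 95% interval -1.06 to 0.42). Acat2 had 2425 and 2635 fed and 2408 and 1929 fasted (-0.22, SE 0.37), and Ggps1 had 1399 and 1448 fed and 1123 and 1390 fasted (-0.18, SE 0.38). In Acat2 and Ggps1 the nearest fed and fasted libraries were almost level. Mvk was higher, at 1140 and 980 fed and 1015 and 1321 fasted (0.14, 95% interval -0.63 to 0.91). Hmgcs1 had 9936 and 8855 fed and 9799 and 5905 fasted (-0.26, SE 0.43), and Idi1 had 4967 and 5870 fed and 5018 and 4026 fasted (-0.26, SE 0.38).

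The squalene and sterol arm had 5 genes lower and 7 higher, with a median of 0.09. Lss, Msmo1 and Hsd17b7 had both fasted libraries above both fed ones. Msmo1, the sterol C4-methyl oxidase, had 3305 and 3233 fed and 3513 and 4320 fasted (0.26, SE 0.37), where without tetracycline its fasted libraries lay below the fed ones. Cyp51 had 3607 and 3628 fed and 4342 and 3269 fasted (0.07, SE 0.38), so its groups now overlapped. Tm7sf2 overlapped as well, at 825 and 769 fed and 549 and 838 fasted (-0.20, SE 0.43).

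Of the control genes, Srebf2 had 11414 and 10101 in the fed libraries and 11121 and 9097 in the fasted ones (-0.09, SE 0.37). Scap was higher in both fasted libraries, at 4206 and 3994 against 2855 and 3688 fed (0.33, 95% interval -0.41 to 1.06). Insig1 and Insig2 had opposite signs here too, though leaving out 1 library turned signs in each table. Insig1 had 4865 and 5037 fed and 5266 and 3332 fasted (-0.20, SE 0.42), and Insig2 had 1373 and 1512 fed and 1097 and 2281 fasted (0.23, SE 0.49). Without fasted library 2 the differences were 0.09 and -0.40. In mice without tetracycline, leaving out fasted library 1 put Insig2 at -0.19.

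In the uptake group, Npc1 and Npc2 had both fasted libraries above both fed ones. Npc1 had 1169 and 1251 fed and 1267 and 2106 fasted (0.48, SE 0.43), and Npc2 had 5317 and 5549 fed and 7117 and 6698 fasted (0.35, SE 0.35). Soat2 had the largest difference of the 29 genes, 0.78 (95% interval -0.38 to 1.93), but it rested on 1 library, since the fed libraries had 4543 and 3791 and the fasted ones 3431 and 10854. Npc1l1, at 17251 and 18558 fed, had 7329 and 21955 fasted (-0.29, 95% interval -1.41 to 0.83). Here fasted library 2 was the higher one for both genes.

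**Figure D3:**
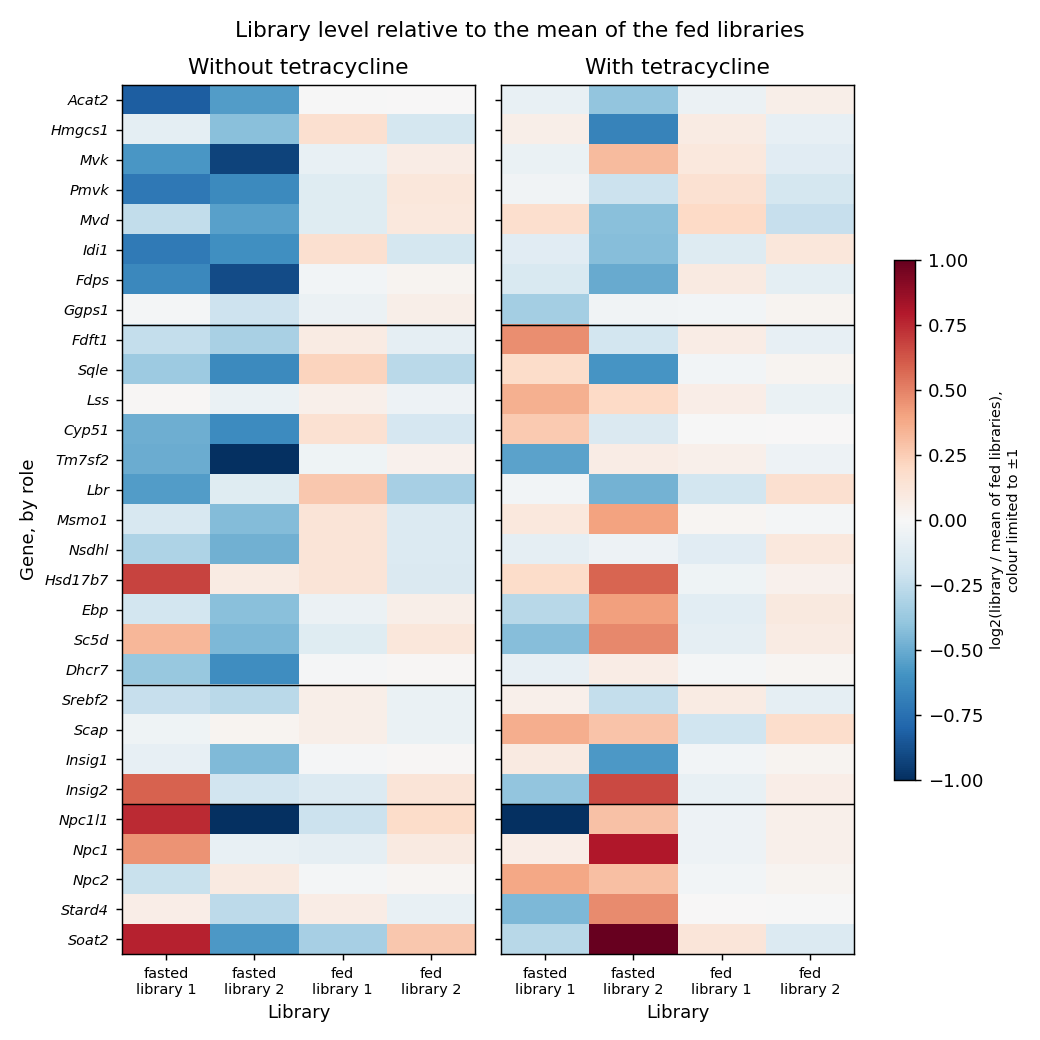
Log2 level of each library over the mean of the fed libraries of its table, by gene (rows, parted into the 4 roles) and library (columns), without (left) and with tetracycline (right), with colours limited to 1 log2 unit either way. Without tetracycline all 8 mevalonate rows lie below the fed mean in both fasted columns, with the palest cells for Ggps1 and Hmgcs1 in fasted library 1. Npc1l1 and Soat2 have opposite colours in the 2 fasted libraries of each table.

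The third comparison tested whether the fasting difference itself changed with tetracycline, by a Wald test of the difference between the 2 tables' log2 values. None of the 29 genes passed. The count called was 0 of 29 at a Benjamini-Hochberg adjusted p under 0.05, where 0.0228% of 17571 genes were called, and 0 had an unadjusted p under 0.05, where 1.05% did. The fasting difference was higher with tetracycline in 24 of 29 genes, by a median of 0.34, against 0.0003 over all genes and 0.07 among those with means from 500 up. Of the 29 genes, 14 were lower on fasting in both tables, 10 were lower without and higher with tetracycline, 4 were higher in both, and 1, Npc1l1, was higher without and lower with it.

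Mvk had the lowest p-value of this test, 0.0672 (adjusted 0.999969), with a difference of 0.88 (SE 0.48, 95% interval -0.06 to 1.83). Cyp51 followed in size at 0.63 (95% interval -0.27 to 1.53), then Pmvk at 0.55 (-0.38 to 1.49) and Msmo1 at 0.55 (-0.33 to 1.44). Hmgcs1, Hsd17b7 and Insig2 stood at -0.01, -0.01 and -0.02, with intervals that reached 1 log2 unit or nearly so on both sides. For Hmgcs1 this was -1.01 to 0.98. The counts do not show that fasting acted alike with and without tetracycline.

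Levels with and without tetracycline were set side by side from the rebuilt group means, centred on the median of all genes, without a test because the tables were scaled separately. In fed mice 26 of 29 genes were lower with tetracycline, with a median log2 ratio of -0.38, where 51.6% of all genes and 62.1% of those with means from 500 up were lower. The ratios ran from -0.71 (Npc1l1) to 0.04 (Ggps1), with Fdft1, which makes squalene, and Msmo1 both at -0.69, Cyp51 at -0.64 and Sqle at -0.63. Counting by role, 7 of 8 genes of the mevalonate arm, 11 of 12 of the squalene and sterol arm, all 4 control genes and 4 of 5 uptake genes were lower. In fasted mice the same genes were divided, 16 lower and 13 higher, with a median of -0.03. Mvk stood highest there at 0.50 and Npc1l1 lowest at -1.08. Fed and fasted ratios share no library, but they come from the same group means as the third comparison. The gap between a gene's 2 ratios therefore restates that comparison, apart from centring and pseudocount, and adds no separate evidence. Lymphocyte markers summed to 57065 and 14982 in the fed libraries with tetracycline and 13451 and 16970 in those without. Only fed library 1 with tetracycline stood apart. Gastric markers, summed below, were higher in both fed libraries with tetracycline than in either without. The part of these markers in the lower levels was not tested.

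**Figure D4:**
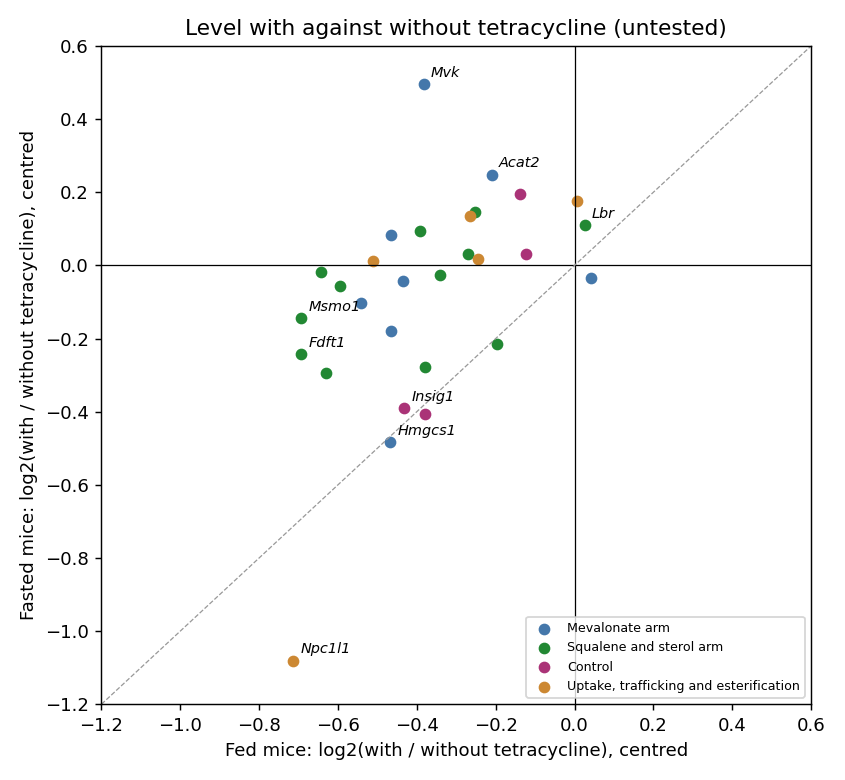
Log2 ratio of the mean level with over without tetracycline in fed mice (horizontal) and fasted mice (vertical) for each of the 29 genes, coloured by role, centred on the median of all genes and untested. The dashed line marks equal ratios. Of the 29 points, 26 lie left of 0 on the fed axis, while on the fasted axis 16 lie below 0 and 13 above.

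Other genes of the pathway, from lists of sterol-sensing and degradation, the isoprenoid branch, carriers, receptors and ester turnover, and acetyl-CoA supply and electron donors, were mixed in direction. Of 14 genes of sterol sensing and degradation, 7 were lower and 7 higher in fasted mice without tetracycline, and 2 lower and 12 higher with it (median 0.24). The 13 genes of the isoprenoid branch, which use the products of the mevalonate arm for prenyl groups, ubiquinone and dolichol, stood at medians of 0.02 and 0.16 in the tables without and with tetracycline. DESeq2 called 0 of these 2 lists in either of the authors' deposited tables, and 0 of them had an unadjusted p under 0.05, where 10.8% of all genes did without and 5.34% with tetracycline. The list of acetyl-CoA supply, electron donors and paralogs leaned lower without tetracycline, in 7 of 10 genes (median -0.11), and divided 5 and 5 with it. Aacs, which activates acetoacetate in the cytosol, had 3292 and 2817 in the fed libraries and 2040 and 2071 in the fasted ones without tetracycline (-0.57, SE 0.26), did not pass DESeq2's test (adjusted p = 0.340), and was chosen after its values were seen.

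Of 18 carriers, receptors and ester turnover genes, 6 were lower and 12 higher without tetracycline (median 0.12), and 5 lower and 13 higher with it (median 0.30). DESeq2 called 1 of them without tetracycline (2.27% of all genes) and 0 with it (0.6%). Unadjusted p-values under 0.05 were held by 5 higher and 1 lower without tetracycline, and by 1 higher and 2 lower with it. Of all genes, 10.8% (6.21% lower) and 5.34% (3.06% lower) held them. The higher ones without tetracycline were Scarb2 (0.92), Lrp1 (1.05), Nceh1 (0.82), Gramd1b (1.07, groups overlapping) and Vldlr. The lower one without tetracycline was Scarb1, a lipoprotein receptor, at -0.84 (SE 0.42), with 865 and 2275 in the fed libraries and 749 and 1007 in the fasted ones. Its groups overlapped there, and fed library 2 stood apart. With tetracycline they did not overlap, at 1651 and 1816 fed and 879 and 958 fasted (-0.92, SE 0.37, adjusted p = 0.583 from DESeq2). The called gene was Vldlr, the very low density lipoprotein receptor, which had 164 and 134 in the fed libraries and 312 and 340 in the fasted ones (1.13, SE 0.34, adjusted p = 0.0439). With tetracycline its difference was 1.21 (SE 0.50, adjusted p = 0.646). Among the paralogs, Acat1, the mitochondrial thiolase, differed by -0.11 where Acat2 differed by -0.68, and with tetracycline by -0.04. Soat1, the broadly expressed paralog of Soat2, differed by 0.29 and 0.17.

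Markers of several cell types moved along with the fasting comparison. The 8 proliferation markers were all lower in fasted mice in both tables, with medians of -0.64 and -0.50. Without tetracycline 1 of them, Birc5, was called, where 2.27% of all genes were. None of these markers was at 0 in a library. Their summed level was 57418 and 37778 in the fed and 28437 and 36480 in the fasted libraries without tetracycline, and 38076 and 58048 fed and 40652 and 25964 fasted with it. The mevalonate arm summed to 34661 and 31002 fed and 25073 and 22263 fasted without tetracycline, and to 26114 and 25034 fed and 24833 and 18796 fasted with it. By gene, both fasted libraries lay below both fed ones in 6 of 8 mevalonate genes and 5 of 8 proliferation markers without tetracycline. Of all genes, 23% did so there. With tetracycline this held for 3 of 8 of each list and for 15.5% of all genes. The part of dividing cells in the values of these genes was not tested.

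The fixed enterocyte markers were higher in fasted mice in 7 of 9 genes in both tables (medians 0.61 and 0.98). Without tetracycline 1 was called, where 2.27% of all genes were. Genes of enterocytes also varied between the 2 fasted libraries of each table. A list of 7 enterocyte transporters and hydrolases, chosen after values were seen because the fixed enterocyte markers were too abundant to resolve by library, was higher in 7 of 7 genes in both tables (medians 0.67 and 0.998). It summed to 206472 and 71401 in the fasted and 67265 and 98414 in the fed libraries without tetracycline. With it the sums were 31774 and 256270 fasted and 66454 and 67966 fed. The library with more of these transcripts was thus fasted library 1 without and fasted library 2 with tetracycline, the same libraries in which Npc1l1 and Soat2 were higher. The uptake genes as a group had a median log2 level over the fed mean of 0.45 and -0.26 in the fasted libraries without tetracycline and -0.28 and 0.47 with it. For the mevalonate arm the 2 fasted libraries without tetracycline read -0.61 and -0.59, close to each other, and with it -0.07 and -0.40. Lymphocyte markers were lower in fasted mice in all 7 genes in both tables, with medians of -1.01 and -1.78, and 3 were called without tetracycline. With it the groups overlapped in all 7 genes. Their sums there were 57065 and 14982 in the fed and 18879 and 3159 in the fasted libraries. The part of lymphocyte markers in these results was not tested either. Myeloid markers were lower in 5 of 5 genes in both tables (medians -1.09 and -1.61), with 1 called without tetracycline. Goblet cell markers were lower in 4 of 6 genes without and 2 of 6 with tetracycline (medians -0.24 and 0.29), with 1 called lower without it. Stroma markers were lower in 6 of 6 genes without and 4 of 6 with tetracycline (medians -1.85 and -1.03), and the 3 erythrocyte markers in all 3 (medians -2.62 and -1.31), with 3 of each list called without tetracycline. Paneth cell markers were higher in 6 of 6 genes in both tables (medians 1.10 and 1.19), with 4 called without tetracycline. With tetracycline 1 library set this, since the 3 resolved by library summed to 120856 and 22887 in the fasted and 26639 and 42581 in the fed libraries. The part of these lists in the values of the 29 genes was not tested. Gastric markers (the 3 resolved by library, of 4) summed to 2004 and 7536 in the fed and 0.82 and 117 in the fasted libraries with tetracycline, and all 4 to 67.5 and 703 fed and 2.75 and 652 fasted without it. Gkn1 and Gkn2 were at 0 in fasted library 1 with tetracycline, and the part of these markers was not tested.

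**Figure D5:**
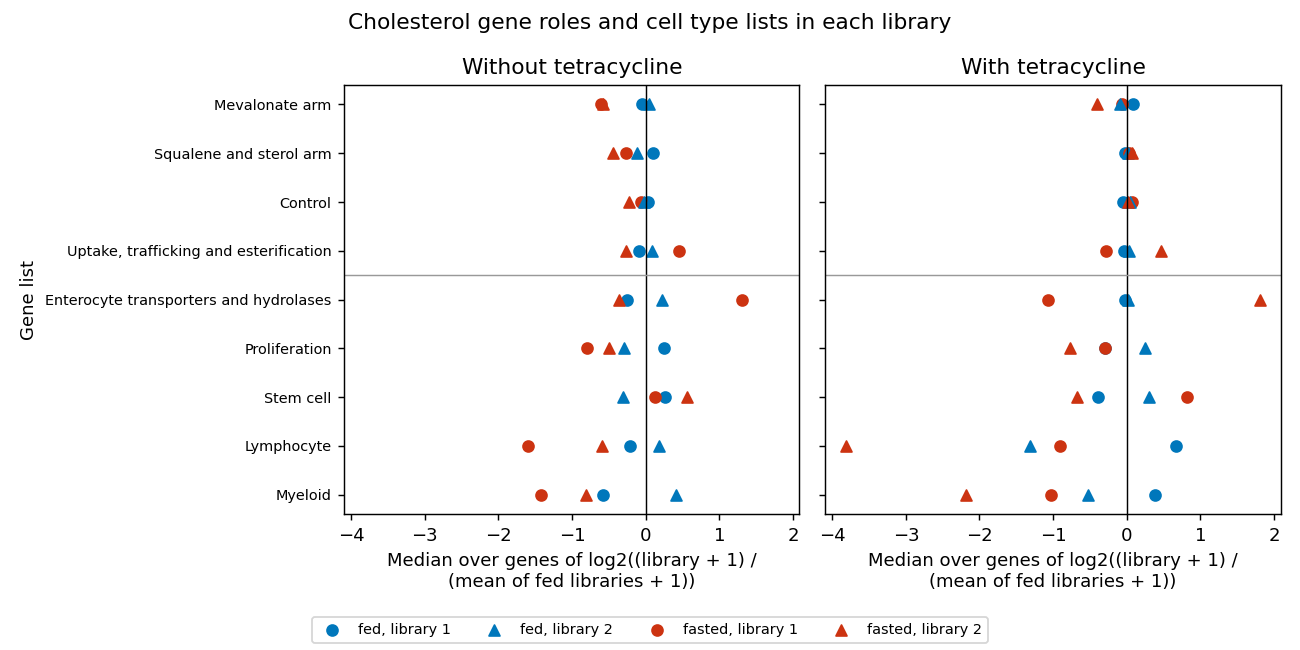
Median over genes of the log2 level of each library over the mean of the fed libraries, for the 4 roles of the cholesterol genes (above the grey line) and 5 cell type lists (below), without (left) and with tetracycline (right). Blue marks are fed, red marks fasted, circles library 1 and triangles library 2. The mevalonate arm has its red marks at -0.61 and -0.59 without tetracycline, while the enterocyte list places its red marks far apart and in opposite order in the 2 tables.

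The libraries do not keep the strand of the RNA, so reads of overlapping genes cannot be assigned by strand. In the GENCODE annotation 11 of the 29 genes share exon bases with another gene, 9 of them with one on the opposite strand. The shared part reached 10% of the exon bases in 5 genes, namely Hmgcs1 (12.1%), Fdps (26.7%), Fdft1 (18.3%), Tm7sf2 (12.1%) and Scap (13.2%). For Fdps and Tm7sf2 the overlapping gene lies on the same strand, so strand would not part their reads either. These are shares of annotated bases. How far reads from the other genes entered the values of the 5 was not measured.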

How the data were processed

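RNA-seq of 4 labelled samples was analysed from 2 tables of the authors' fasting comparisons. Per the submitters' processing notes, the authors used Salmon, DESeq2 and mm10, with no versions named. The authors' deposited mean is a signal, the average count per library after size factor scaling. Deposited fold changes and their standard errors are log2 values, the deposited test statistic is a score equal to their quotient, and the deposited p-values carry a Benjamini-Hochberg adjustment. No column states the direction. The tables' names put fasting first, and positive values were taken to mean higher in fasted mice. Pdk4 and Angptl4, known to rise on fasting, are higher under this reading, and every direction depends on it.

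Size factors divide whole counts, so a mean is built from whole numbers, each weighted by its library's size factor. Mean, fold change and standard error were solved together for the 4 counts, which gave 1 solution for 98.7% of 18101 and 98.3% of 17994 genes and for all 29 described. Tolerances were set after residuals were seen, the routine was tested on simulated data, and counts by Salmon are rounded estimates. Library 1 is the library of a side with the larger size factor. Which library belongs to which labelled sample is unknown, so values are given library by library, with no SD or count model.

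Intervals are the fold change with its standard error at 95%, by the normal distribution. The difference between tables was set against its combined standard error (two-sided Wald test) and adjusted over 17571 genes. Levels with and without tetracycline used group means rebuilt from mean and fold change, with pseudocount 1. Per-length levels used the longest principal transcript of GENCODE release M21, a length chosen after exon totals proved inflated for Lss. Promoters came from RefSeq GRCm38.p6.

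Members, lists and tests were chosen with earlier results of these data known. The rule for full values (adjusted p under 0.05 or a log2 change of at least 1, and the Insig pair) took in only Insig1 and Insig2, so further genes were named by role. Alternatives covered the threshold, adjustment, centring, pseudocount, filter and single libraries. Some items are not reported here. Python 3.11.15 and numpy 2.4.6 were used.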

Additional observations from a re-analysis of the deposited data

How the results depend on the processing

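The number of the 29 genes called stayed at 0 in the 3 comparisons with each other adjustment set and with centring on the median of all genes; a threshold of 0.01 could only give 0 as well. Leaving out 1 library in turn, with no test, put the median fasting difference at -0.44 to -0.18 without tetracycline (26 to 21 genes lower) and -0.03 to 0.07 with it (16 to 12 lower). Other pseudocounts, filters and centring moved the former to between -0.28 and -0.26. The median ratio with over without tetracycline, uncentred, was -0.32 in fed and 0.04 in fasted mice. For single genes, 15 of 116 values without and 21 of 116 with tetracycline changed sign when 1 library was left out, in 10 and 18 genes. No paired analysis was possible because the labels give each group 1 sample and the libraries of a side carry no numbers that pair them. Every mean of the 29 genes was at least 745 normalized counts, and what limited the calls was not tested.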
